A study of Mus musculus with 4 samples.

Results

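Regulatory T cells (Tregs) of a mouse glioma infiltrate were selected on the measured UMIs of single-cell barcodes. A member had at least 500 detected genes, under 10% mitochondrial UMIs, at least 2 UMIs over the T cell receptor complex genes Cd3d, Cd3e and Trac, no UMI of the NK cell gene Ncr1, at least 1 UMI of Foxp3, no UMI of Cd8a or Cd8b1, and fewer than 30 UMIs over the macrophage complement genes C1qa, C1qb and C1qc. A UMI marks 1 captured mRNA molecule. The gate held 322 Tregs, 129 in WT and 193 in CaMKK2 KO, of 1912 T cells, 12866 barcodes of passing quality and 13960 barcodes in all.

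The study asked how loss of CaMKK2, a calcium-activated kinase upstream of AMPK, changes the immune cells of glioma. Live CD45+ cells were sorted from tumor-bearing hemispheres of C57Bl/6 mice on day 14 after implantation of CT2a, a mouse glioma cell line. There were 4 WT mice and 4 CaMKK2 KO mice, which lack the gene in the germline and so in every host cell. The mice of each genotype were tagged with 4 hashtag antibodies and pooled in 1 10x Genomics channel, so genotype and channel cannot be told apart. The mice were adult females matched for age, per the study's methods.

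Tregs are CD4+ T cells that restrain other lymphocytes. The transcription factor Foxp3 holds their identity, and they live on interleukin 2 made by other T cells, which they capture with the high-affinity receptor chain CD25 (Il2ra). They act through CTLA-4, through adenosine made by the ectoenzymes CD39 and CD73, and through TGF-beta and interleukin 10, and in tumors they are known as a brake on cytotoxic T cells.

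Hashtags assigned 300 of the Tregs to 1 mouse, and the mouse is the replicate throughout. The 4 WT mice gave 10, 41, 30 and 39 Tregs with 40415, 283309, 229760 and 335328 UMIs in all. The 4 CaMKK2 KO mice gave 37, 29, 93 and 21 Tregs with 422841, 285627, 808792 and 171977 UMIs. WT mouse 1 was thus the shallowest sample by far, and CaMKK2 KO mouse 3 held more Tregs than any other animal. The median UMI count of a Treg was 5614 ± 1310 in WT and 6386 ± 853 in CaMKK2 KO (SD, n = 4 mice each, exact two-sided permutation p = 0.4). Levels are given as CPM, a gene's UMIs scaled to a total of 1000000 UMIs over the same cells of a mouse, which describe how mRNA was divided among genes, not how much RNA a cell held. The libraries shared 42 barcode sequences, none of them in a Treg.

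Camkk2 itself (chr5:122731170-122779409, mm10) was barely captured in Tregs, with 16 UMIs over the 8 mice. Its level was 0, 0, 17.4 and 5.96 CPM in the WT mice and 4.73, 3.50, 6.18 and 11.6 in the CaMKK2 KO mice, so the genotypes overlapped and the gene was too sparse to test. In cells other than T cells it was 28.1, 30.7, 41.1 and 29.7 CPM in WT and 15.5, 18.7, 15.0 and 24.9 in CaMKK2 KO, without overlap. The assay reads the 3′ end of transcripts and the deleted exons were not given in the sources used here, so UMIs that remain in CaMKK2 KO neither pass nor fail as a check of the deletion.

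Foxp3 was the condition that most cells failed. Among barcodes that met every other condition, 155 in WT and 450 in CaMKK2 KO had no Foxp3 UMI, while 22 of the 129 WT Tregs and 54 of the 193 CaMKK2 KO Tregs stood just inside with 1 UMI. The median Treg had 4 Foxp3 UMIs in WT and 3 in CaMKK2 KO, and the highest had 19 and 18. Cd8 transcripts alone kept out 27 and 45 Foxp3-positive T cells, which were counted neither as Tregs nor as other T cells. C1q transcripts alone kept out 14 and 17 barcodes, the nearest with 58 and 70 C1q UMIs, whereas no member had more than 12 in WT or 13 in CaMKK2 KO. Mitochondrial UMIs alone kept out 6 and 14 barcodes, the nearest at 10.6% and 10.1%, beside members at up to 9.96% and 9.68%.

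A single Foxp3 UMI can also come from free RNA, so the same count was made in cells that should lack the gene. Cd8+ T cells held a Foxp3 UMI in 26 of 464 cells in WT (5.60%, exact binomial 95% interval 3.69 to 8.10) and in 36 of 454 in CaMKK2 KO (7.93%, interval 5.62 to 10.8), at median depths of 10438.5 and 12050.5 UMIs against 5955 and 6351.5 in Tregs. The share was 0.514% and 0.292% in macrophages and 0.427% and 0.842% in NK cells. No Foxp3 UMI was found in 159 WT and 172 CaMKK2 KO B cells, which allows shares of up to 1.89% and 1.74% by a limit of 3 counts, or 2.29% and 2.12% by the exact binomial interval. These intervals cover counting error only. Cells with 1 Foxp3 UMI were compared with the rest of the Tregs for genes outside the gate. Il2ra was at 1070 CPM in the 21 WT Tregs with 1 UMI and at 1008 in the 99 with more, against 241 in 45 Cd4+ Foxp3- T cells. In CaMKK2 KO the values were 531, 647 and 173. Ifng, the gene of the effector cytokine interferon gamma, was at 10.2, 17.7 and 520 CPM in the same 3 WT classes and at 27.0, 30.1 and 632 in CaMKK2 KO. By both genes, Tregs with 1 Foxp3 UMI stood near the other Tregs and apart from Cd4+ Foxp3- T cells. By Capg in CaMKK2 KO (578, 828 and 497 CPM in the same order) and Izumo1r in WT (285, 379 and 200), they lay nearer the latter.

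Tregs made up a similar range of the T cells in both genotypes. Their share of T cells was 22.7%, 20.0%, 12.2% and 16.7% in the WT mice and 14.6%, 10.9%, 25.4% and 12.8% in the CaMKK2 KO mice. The means, 17.9% ± 4.52 and 15.9% ± 6.49 (SD, n = 4), differed by -1.96 percentage points, which is less than the spread between mice (exact two-sided permutation p = 0.657; 4 mice against 4 cannot go below 0.02857). Leaving out 1 mouse moved the difference between -0.297 (without CaMKK2 KO mouse 2) and -5.12 percentage points (without CaMKK2 KO mouse 3, exact permutation p = 0.171). Of all cells of passing quality, Tregs were 0.899%, 2.83%, 2.04% and 2.53% in WT and 2.63%, 1.61%, 5.51% and 1.69% in CaMKK2 KO. The means of 2.07% ± 0.848 and 2.86% ± 1.83 differed by 0.788 percentage points (exact permutation p = 0.6), and the difference was -0.096 without CaMKK2 KO mouse 3, which had the highest share.

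Among Cd4+ T cells the balance looked different. Tregs with a Cd4 UMI were 90.0%, 68.3%, 50% and 62.5% of the Cd8-negative T cells with a Cd4 UMI in WT and 37.9%, 17.8%, 52.7% and 19.7% in CaMKK2 KO, a denominator chosen after the values were seen. The means were 67.7% ± 16.7 and 32.0% ± 16.5, a difference of -35.7 percentage points with overlap at 1 mouse of each genotype (exact permutation p = 0.0571). Cd4+ Foxp3- T cells, the other side of this ratio, numbered 1, 13, 16 and 15 in the WT mice and 41, 106, 62 and 49 in the CaMKK2 KO mice. Tregs themselves carried a Cd4 UMI in 68.9% ± 15.4 of cells in WT and 69.6% ± 9.57 in CaMKK2 KO, so Cd4 detection among Tregs differed by less than the spread between mice.

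**Figure D1:**
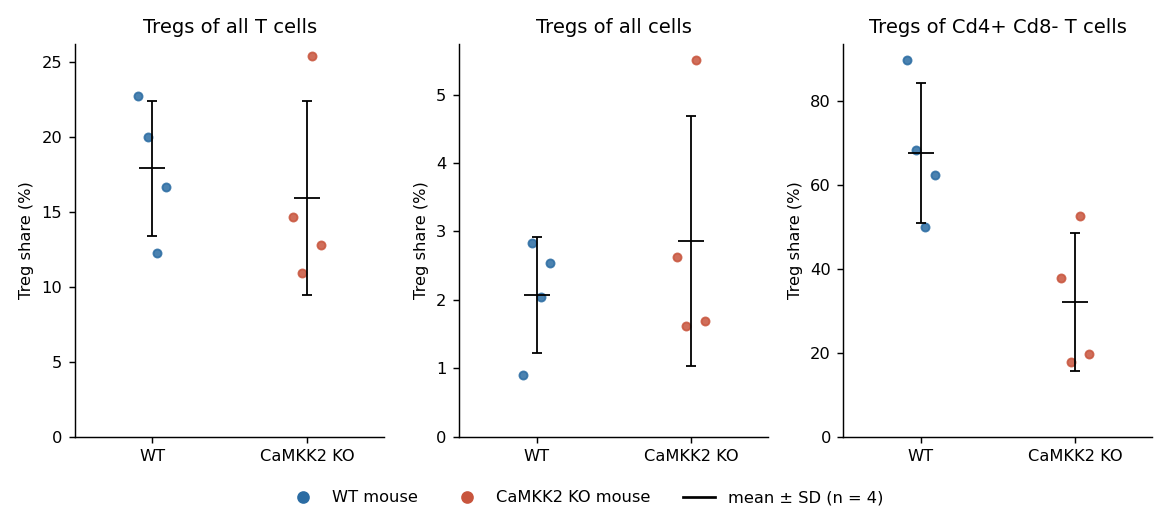
Tregs as a percentage of T cells, of all cells and of Cd4+ Cd8- T cells, with 1 point per mouse and the mean ± SD of 4 mice for WT and CaMKK2 KO. The genotypes overlap in the first 2 panels, and in the third the CaMKK2 KO mice run from 17.8% to 52.7% and the WT mice from 50% to 90.0%.

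The label was checked against genes that the gate did not use. Tregs were compared with the other T cells of the same mice (Foxp3 at 0, 1414 assigned cells, of which many were Cd8+). They were also compared with Cd4+ Foxp3- T cells (303 assigned cells, 45 in WT and 258 in CaMKK2 KO). WT mouse 1 gave only 1 of these cells, which weighs as a whole mouse in their means over mice. Both comparisons used edgeR's quasi-likelihood test on UMIs summed per mouse, with the mouse as a block and Benjamini-Hochberg adjustment. Of 9187 genes tested against other T cells, 1893 were called (20.6%), 1345 higher (14.6%) and 548 lower (5.96%). Under another scaling, TMM, the split was 817 higher and 857 lower, and the median log2 fold change of all genes moved from 0.14 to -0.02, so small increases below should be read against 0.14. Against Cd4+ Foxp3- T cells 343 of 6184 genes were called (5.55%), 203 higher (3.28%) and 140 lower (2.26%). Foxp3, the Cd3 genes and the other gate genes were not tested. The limit of 100 UMIs was set on both classes together, so 5208 of the 9187 genes passed it with fewer than 100 UMIs in Tregs, some only through the class where they are high. List counts below were therefore taken over members with at least 100 UMIs in each class, and a gene under 100 UMIs in either class is given by its levels, with no test. Only 325 of the 9187 genes had fewer than 100 UMIs in other T cells, so against those cells this restriction favors members high in Tregs. Of the 3975 genes with at least 100 UMIs in both Tregs and other T cells, 1284 were called (32.3%), 1022 higher (25.7%) and 262 lower (6.59%), with a median log2 fold change of 0.19, or 0.02 under TMM scaling. Of the 3625 with at least 100 UMIs in both Tregs and Cd4+ Foxp3- T cells, 211 were called (5.82%), 132 higher (3.64%) and 79 lower (2.18%), with a median of 0.04.

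Il2ra (chr2:11642807-11693193), the CD25 chain, was at 767, 1133, 962 and 981 CPM in Tregs of the WT mice and at 620, 637, 645 and 541 in the CaMKK2 KO mice. In other T cells of the 8 mice it was at 86.9 ± 32.2 (SD, n = 8), and no Treg value overlapped these. The log2 fold change was 3.13 ± 0.20 (SE, edgeR adjusted p = 1.07e-10) against other T cells and 1.93 ± 0.18 (edgeR adjusted p = 6.42e-07) against Cd4+ Foxp3- T cells, where its level was 187 ± 115. Ikzf2 (chr1:69531214-69687245) encodes Helios, a transcription factor that marks most Tregs of thymic origin. Its level in Tregs was 2128, 1931, 2215 and 2198 CPM in WT and 1547, 1758, 1738 and 1582 in CaMKK2 KO. Other T cells held 266 ± 75.6, and the log2 fold change was 2.83 ± 0.13 (edgeR adjusted p = 7.88e-13).

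Tnfrsf4 (chr4:156013843-156016612), the costimulatory receptor OX40, was at 1311, 2079, 1201 and 1560 CPM in Tregs of the WT mice and at 1592, 1190, 1548 and 1227 in CaMKK2 KO. It exceeded other T cells (183 ± 94.6) by 3.07 ± 0.21 on the log2 scale (edgeR adjusted p = 3.49e-10) and Cd4+ Foxp3- T cells (674 ± 296) by 1.05 ± 0.18 (edgeR adjusted p = 0.000572). Izumo1r (chr9:14885814-14903949), the folate receptor 4 gene that Tregs carry at high level, was at 322, 519, 370 and 248 in WT and at 307, 361, 300 and 314 in CaMKK2 KO, against 34.5 ± 22.1 in other T cells (log2 fold change 3.30 ± 0.19, edgeR adjusted p = 4.95e-11). All 8 mice had more of either transcript in Tregs than in the other T cells.

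Klrg1 (chr6:122270596-122282882), a lectin receptor of differentiated lymphocytes, was the least even of the markers. Its level in Tregs was 0, 56.5, 104 and 158 CPM in WT and 213, 270, 166 and 81.4 in CaMKK2 KO, with WT mouse 1 at 0. It was still higher than in other T cells (10.0 ± 6.56) in 7 of 8 mice, by 3.8 ± 0.26 on the log2 scale (edgeR adjusted p = 4.34e-10). Ctla4 (chr1:60887000-60915832), the inhibitory receptor, was at 1475 ± 375 in Tregs, 575 ± 283 in Cd4+ Foxp3- T cells and 280 ± 105 in other T cells (SD, n = 8), and it was higher in Tregs by 2.39 ± 0.19 and 1.23 ± 0.21 on the log2 scale (edgeR adjusted p = 3.99e-09 against other and 0.000544 against Cd4+ Foxp3- T cells). Cd4 was at 190 ± 76.2 in Tregs and higher than in other T cells in 7 of 8 mice (log2 fold change 1.40 ± 0.35, edgeR adjusted p = 0.00509), a call that was lost without the mouse block (adjusted p = 0.106). Foxp3 (chrX:7573644-7595245), which chose the cells, was at 1311, 607, 548 and 576 CPM in WT and at 430, 455, 417 and 366 in CaMKK2 KO. By these markers the label held.

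**Figure D2:**
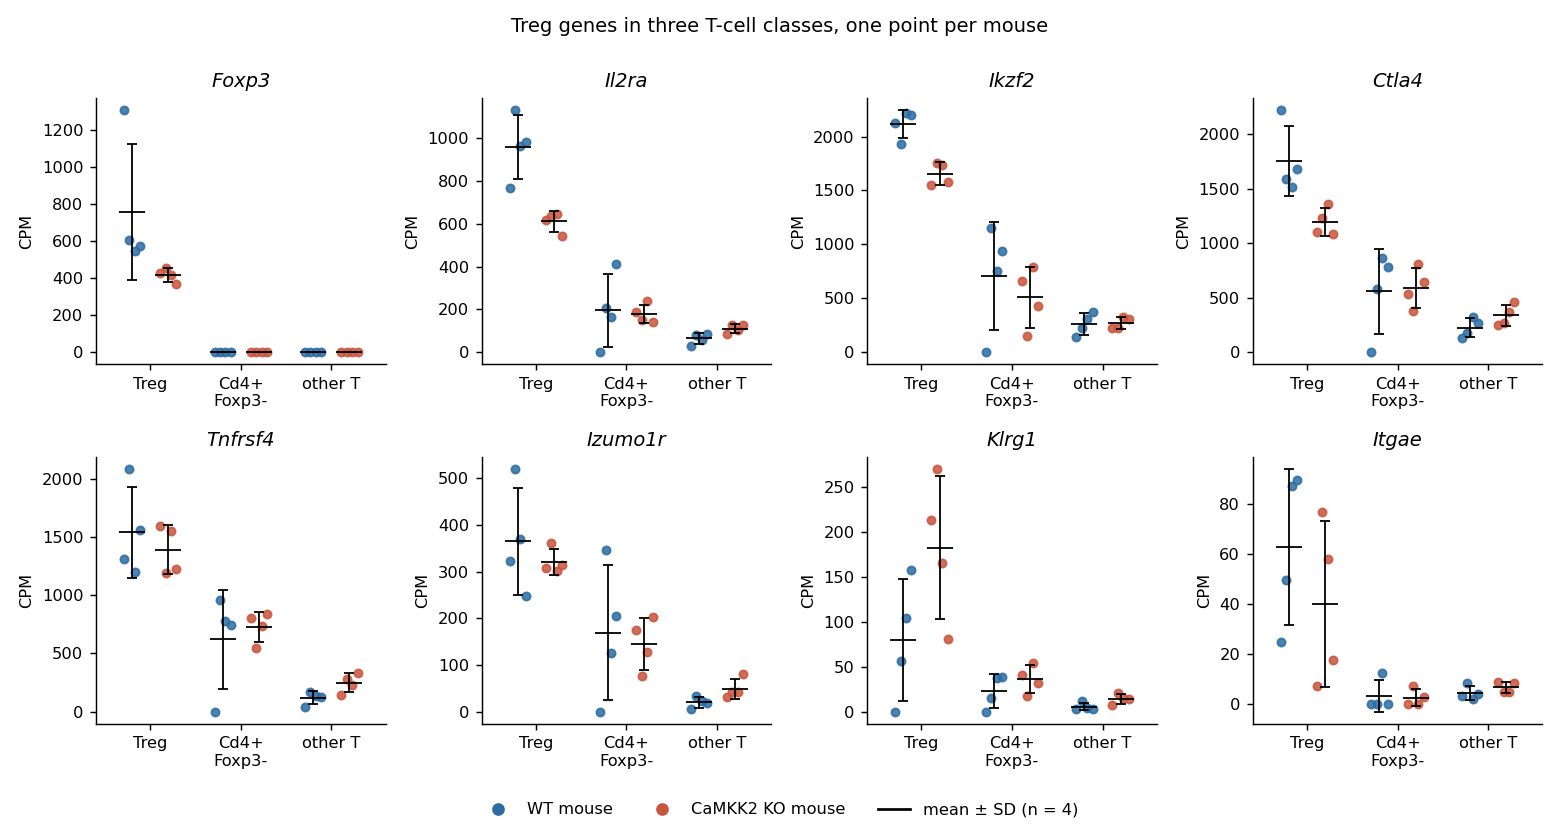
Levels of Foxp3, Il2ra, Ikzf2, Ctla4, Tnfrsf4, Izumo1r, Klrg1 and Itgae in CPM in Tregs, Cd4+ Foxp3- T cells and other T cells, 1 point per mouse. Il2ra, for example, averages 786 in Tregs, 187 in Cd4+ Foxp3- T cells and 86.9 in other T cells.

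Transcription factors known to act in Tregs were often higher in Tregs than in other T cells, among them Ikzf2 and Ikzf4. Of 25 members of a list of Treg transcription factors, 15 were higher and 2 lower than in other T cells, with a median log2 fold change of 0.75 against 0.19 for all genes. Against Cd4+ Foxp3- T cells, 3 of 23 were higher and 1 was lower, with a median of -0.24 against 0.04. Ikzf4, which encodes the Helios relative Eos, was at 145 ± 43.7 CPM in Tregs, 26.0 in Cd4+ Foxp3- and 24.7 in other T cells, and was called against other T cells (log2 fold change 2.40 ± 0.19). Prdm1, the gene of Blimp-1, a regulator of effector Tregs, was likewise higher in both, by 1.62 and 0.74 on the log2 scale, and Myb exceeded other T cells by 2.52. Maf, a driver of Il10 transcription, was at 974 ± 257 in Tregs and 167 in other T cells, but at 784 in Cd4+ Foxp3- T cells, from which it was not called different. Runx3, a factor of cytotoxic T cells, was lower in both comparisons, by -1.51 and -0.74 on the log2 scale. Batf, Tox, Stat3 and Satb1 were not called against other T cells.

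Of 12 genes of the interleukin 2 receptor and its signal, 5 were higher and 1 lower than in other T cells (median 0.38), and 4 were higher and 2 lower under TMM scaling. Against Cd4+ Foxp3- T cells 2 were higher and 1 lower (median 0.01 against 0.04 for all genes). Besides Il2ra, the inhibitor Socs2 was at 185 CPM in Tregs, 93.8 in Cd4+ Foxp3- and 45.9 in other T cells (log2 fold changes 2.04 and 0.76, both called). Il2rb, the shared beta chain, was at 600, 374 and 549 and was called in neither comparison. The 1 lower member was Bcl2, which encodes a survival protein. Its level in Tregs was 99.0, 53.0, 74.0 and 89.5 CPM in WT and 7.09, 35.0, 27.2 and 52.3 in CaMKK2 KO, below the lowest value in other T cells (157 in CaMKK2 KO mouse 2). The log2 fold change was -3.28 ± 0.23 against other T cells (edgeR adjusted p = 6.75e-10) and -2.40 ± 0.26 against Cd4+ Foxp3- T cells (edgeR adjusted p = 2.62e-06).

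Costimulatory receptors were higher in Tregs than in other T cells for 10 of 10 (median 1.35), or 9 under TMM scaling. They were higher than in Cd4+ Foxp3- T cells for 6 of 10 (median 0.71). The 3 members left out had fewer than 100 UMIs in Tregs, and the medians over all 13 were 0.93 and 0.63. Tnfrsf18, the GITR gene, was at 974 ± 207 CPM in Tregs, 558 in Cd4+ Foxp3- and 266 in other T cells. Icos was at 987, 612 and 215, and Tnfrsf9, the 4-1BB gene, at 548, 274 and 175. These 3 receptors were called higher in both comparisons. Cd40lg, the ligand by which helper T cells license B cells and dendritic cells, was at 2.7 CPM in Tregs against 54.3 in Cd4+ Foxp3- T cells.

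Suppressive molecules moved in both directions. Of 18 compared with other T cells, 10 were higher and 5 lower (median 0.69), or 8 and 5 under TMM scaling, and of 17 compared with Cd4+ Foxp3- T cells, 4 were higher and 1 lower (median 0.18). Lrrc32 encodes GARP, which holds latent TGF-beta on the Treg surface. Its level was 74.2, 98.8, 109 and 107 CPM in Tregs of the WT mice and 68.6, 42, 58.1 and 93.0 in CaMKK2 KO, against at most 9.27 in other T cells of any mouse. Itgb8, the integrin chain that releases TGF-beta from that complex, was at 116 ± 46.6 in Tregs and 8.92 in other T cells (log2 fold change 3.70 ± 0.22, edgeR adjusted p = 6.04e-11).

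Il10 was at 99.0, 88.2, 131 and 104 CPM in Tregs of the WT mice and at 40.2, 45.5, 213 and 69.8 in CaMKK2 KO. It exceeded other T cells (12.8) by 2.93 ± 0.31 on the log2 scale (edgeR adjusted p = 3.24e-07) and was not called against Cd4+ Foxp3- T cells (73.5; log2 fold change 0.44 ± 0.26, edgeR adjusted p = 0.471). Areg, a tissue repair growth factor, was at 60.4 in Tregs and 5.47 in other T cells. Gzmb, the granzyme B gene, was at 1588 ± 751 in Tregs, 1491 in other T cells and 739 in Cd4+ Foxp3- T cells, and was called only against the last (log2 fold change 1.27, edgeR adjusted p = 0.000318). Entpd1, the CD39 gene, was called in neither comparison. The member lower in Tregs than in Cd4+ Foxp3- T cells was the inhibitory receptor Havcr2 (48.7 against 109).

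Receptors of tissue Tregs, a list of 25 genes for homing and alarmin sensing, had 11 higher and 3 lower of 19 against other T cells (median 0.75), and 5 higher and 3 lower of 18 against Cd4+ Foxp3- T cells (median 0.43). Itgae, the CD103 integrin chain that binds E-cadherin, was at 24.7, 49.4, 87.0 and 89.5 CPM in Tregs of the WT mice and at 7.09, 77.0, 58.1 and 17.4 in CaMKK2 KO, while Cd4+ Foxp3- T cells averaged 2.81. Il1rl1, the receptor of the alarmin interleukin 33, was at 67.5 ± 42.1 in Tregs and 5.28 in other T cells. The chemokine receptor Ccr2 was at 427 in Tregs, 271 in Cd4+ Foxp3- and 104 in other T cells and was called in both comparisons. Cxcr6 and Itgb1 were lower in both, Cxcr6 at 109 against 348 and 409, and Itgb1 at 119 against 350 and 236.

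Effector genes of conventional T cells mostly passed the limit on UMIs only through other T cells, with 17 of 22 members under 100 UMIs in Tregs. Of the 5 members with at least 100 UMIs in Tregs, Fasl, Nkg7 and Ccl5 were lower than in other T cells and Ccl3 and Ccl4 were not called, and Nkg7 was lower than in Cd4+ Foxp3- T cells. Ifng was at 0, 24.7, 0 and 23.9 CPM in Tregs of the WT mice and at 9.46, 59.5, 22.3 and 64.0 in CaMKK2 KO. Cd4+ Foxp3- T cells averaged 487 and other T cells 303. The chemokine Ccl1 was at 3.24, 232 and 94.0 in Tregs, Cd4+ Foxp3- and other T cells, and the TNF family ligand Tnfsf8 at 2.59, 203 and 45.0. Gzmf, a granzyme of cytotoxic lymphocytes, was at 7.78 in Tregs and 648 in other T cells. These levels are a description, since the 4 genes had fewer than 100 UMIs in Tregs.

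Resting T-cell genes were mixed, with 4 higher and 1 lower of 7 against other T cells (median 0.80) and 1 lower of 6 against Cd4+ Foxp3- T cells (median -0.26). With the members under 100 UMIs in either class included, the median was 0.23 over 12 genes against other T cells, near the 0.14 of all genes tested. Against Cd4+ Foxp3- T cells it was -0.63 over 10. Tcf7, the TCF-1 gene of memory and stem-like T cells, was at 11.0 CPM in Tregs, 112 in Cd4+ Foxp3- and 47.6 in other T cells, with no test for the same reason. Il7r was at 721 in Tregs and 306 in other T cells, and was not called against Cd4+ Foxp3- T cells (563).

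Cell cycle genes were called higher in Tregs for 2 of 20 against other T cells (median 0.20) and for 6 of 15 against Cd4+ Foxp3- T cells (median 0.84), with none lower in either. Mki67, the marker of cycling cells, was at 293 ± 151 CPM in Tregs, 80.6 in Cd4+ Foxp3- and 170 in other T cells, and was called in both (log2 fold changes 1.61 and 0.77). The nucleotide reductase gene Rrm2 was at 76.7, 17.1 and 41.1 and was called against other T cells, while Top2a was called only against Cd4+ Foxp3- T cells (205 against 69.1).

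Interferon response genes had 19 higher and none lower of 28 against other T cells (median 0.73), and 9 higher and none lower of 24 against Cd4+ Foxp3- T cells (median 0.60). Class II and dendritic cell markers had 3 of 3 higher against Cd4+ Foxp3- T cells (median 1.83). Against other T cells 1 of 4 was higher (median 0.77), and none under TMM scaling. These sums rest on few cells. In each CaMKK2 KO mouse 3 Tregs held 80.8% to 98% of the UMIs of H2-Aa, H2-Ab1, H2-Eb1 and Cd74, and in the WT mice 32.3% to 95.7%. Iigp1, an interferon-induced GTPase, was at 269 CPM in Tregs, 127 in Cd4+ Foxp3- and 51.2 in other T cells (log2 fold change 2.69 ± 0.20 against other T cells, edgeR adjusted p = 1.61e-09). Ly6a, the Sca-1 gene, was at 1983, 1317 and 815, and Gbp3 at 126, 44.0 and 39.6. Ifit1 and Ifit3 were not called in either comparison. MHC class I and peptide loading genes had 13 higher of 16 against other T cells (median 0.42), a count that fell to 6 under TMM scaling, and only B2m was called against Cd4+ Foxp3- T cells, a call lost under TMM scaling.

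**Figure D3:**
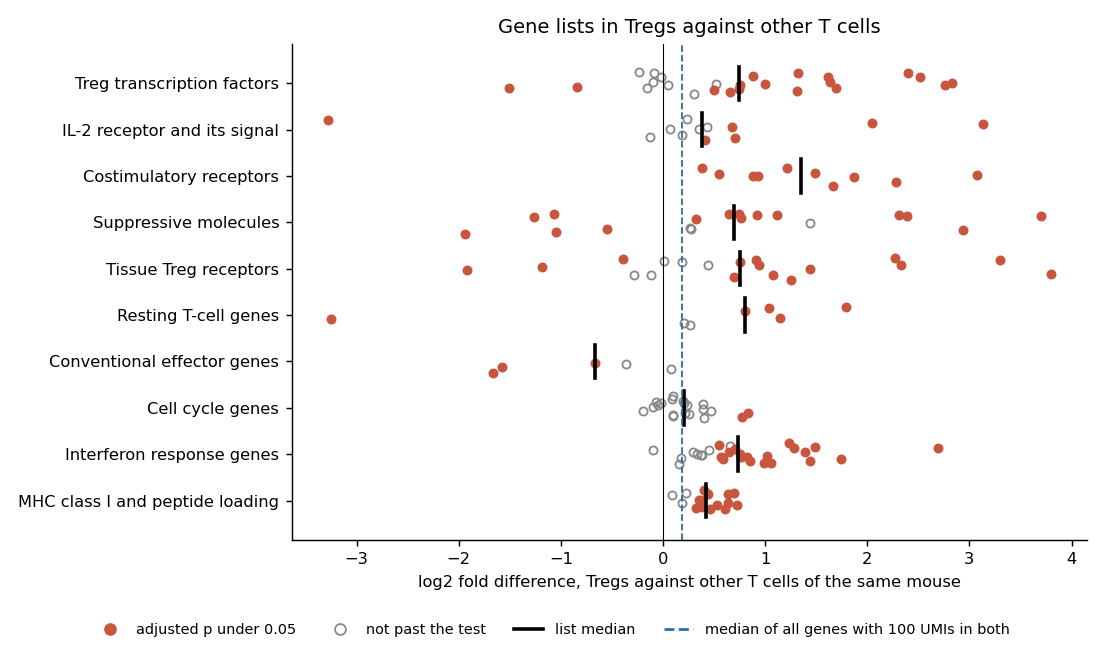
Log2 fold changes of Tregs against other T cells of the same mice for the genes of 10 lists with at least 100 UMIs in both classes, 1 point per gene, filled where the edgeR adjusted p was under 0.05, with the median of each list and a line at the median of all such genes (0.19). Costimulatory receptors lie to the high side (median 1.35), and the 5 effector genes have a median of -0.66.

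Genes outside the lists also separated Tregs. Rapsn, known for clustering acetylcholine receptors at the nerve-muscle junction, was at 147 ± 99.0 CPM in Tregs, 27.6 in Cd4+ Foxp3- and 10.2 in other T cells (log2 fold change 3.65 ± 0.20 against other T cells, edgeR adjusted p = 1.34e-11). Bmyc, a relative of Myc, was at 203 ± 90.9, 63.6 and 21.1, and the cytoskeletal linker Dst at 61.4, 18.4 and 6.60. The genes with the lowest levels relative to other T cells had few UMIs in Tregs. Among them Klrc1, an NK cell receptor, was at 3.91 against 264 CPM, and Trgv2, a gamma-delta receptor segment, had no UMI in any Treg.

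Markers of other cells were measured in the same Tregs. The class II and dendritic cell list summed to 198, 381, 213 and 4214 CPM in the WT mice and 1715, 4394, 2697 and 11129 in the CaMKK2 KO mice, with H2-Ab1 the most abundant. At least 1 UMI of H2-Aa, H2-Ab1, H2-Eb1 or Cd74 was found in 70.0% to 97.6% of Tregs in the WT mice and in 95.7% to 100% in the CaMKK2 KO mice. Most of the UMIs lay in few cells where the sum was high. The 3 cells with the most held 61.5%, 49.5%, 32.3% and 95.7% of them in the WT mice and 80.8%, 93.6%, 84.4% and 98% in the CaMKK2 KO mice. The macrophage list summed to 1287, 1235, 1293 and 1530 in WT and 965, 1271, 1019 and 4559 in CaMKK2 KO, with Ctss the most abundant and Ccl8 at 0. CaMKK2 KO mouse 4 was the highest for both lists, and their part in the results was not tested beyond leaving the class II-rich cells out below. Of the B cell list Cd79b was the most abundant and Pax5 was at 0, and the globins of the erythroid list were at 0. The brain and glioma list summed to between 1611 and 3835, nearly all Vim, with Mobp, Snap25, Slc1a3, Sox2, Egfr and Pdgfra at 0. NK cell markers summed to between 124 and 1721, the highest in CaMKK2 KO mouse 4, and Fcer1g was the most abundant. Fcer1g was lower in Tregs than in other T cells and Tyrobp was not called, and the other 5 NK cell markers tested had fewer than 100 UMIs in Tregs. Dissociation and heat shock genes, a sign of handling, had 3 higher of 9 in that comparison (median 0.16), among them Fos (0.93) and Dusp1 (1.09), and the CaMKK2 and AMPK pathway had 2 higher of 8 (median 0.14), Camk2d and Prkag1, of which Prkag1 was not called under TMM scaling.

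Within Tregs, markers ran from near universal to rare. Ikzf2 was detected in 100% of WT and 98.3% of CaMKK2 KO Tregs, Tnfrsf4 in 95% and 96.7%, and Il2ra in 87.5% and 87.2%. In other T cells, which include cells that use these genes, the shares were 63.7% and 54.1% for Ikzf2 and 35.4% and 45.6% for Il2ra. Il10 was detected in 25.8% and 25.6% of Tregs (3.09% and 6.13% of other T cells), Mki67 in 32.5% and 32.8%, and Tcf7 in 3.33% of either. Depth bears on such shares, so cells were also thinned to 3000 UMIs, which kept 105 WT and 153 CaMKK2 KO Tregs. At that depth Il2ra was detected in 86.7% and 71.9%, Klrg1 in 20.0% and 30.7% (23.3% and 44.4% before thinning), and Itgae in 14.3% and 7.84% (27.5% and 15.0% before). These shares pool cells over mice, and per mouse the genotypes overlapped for all 3 genes. Il2ra ran from 71.4% to 88.9% in WT and from 66.7% to 81.25% in CaMKK2 KO. For Klrg1 the ranges were 0 to 25.7% and 16.7% to 41.7%, and for Itgae 11.1% to 18.5% and 0 to 16.7%. Ikzf2 was found in 100% and 96.7% of thinned Tregs (88.9% in CaMKK2 KO mouse 4), against 38.3% and 32.6% of thinned other T cells. It was thus near universal in Tregs at matched depth but not confined to them.

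WT and CaMKK2 KO Tregs were then compared over mice. Of 3986 genes with at least 100 UMIs, 18 were called (0.452%), 5 higher in CaMKK2 KO (0.125%) and 13 lower (0.326%), and 506 had an unadjusted p under 0.05. The median log2 fold change of all genes was -0.03. Every call below carries the channel along with the genotype. The limit was set on the UMIs of both genotypes together, and 11 of the 18 called genes had fewer than 100 in one of them, so some passed only through the genotype where they are high. Of the 1428 genes with at least 100 UMIs in each genotype, 7 were called (0.49%), all of them lower in CaMKK2 KO. The WT Tregs held 888812 UMIs and the CaMKK2 KO Tregs 1689237. The same 100 UMIs thus ask for a higher CPM in WT, which favors genes lower in CaMKK2 KO.

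Nt5e (chr9:88327197-88372092), the CD73 gene that makes adenosine from AMP, was lower in CaMKK2 KO Tregs. It was at 396, 215, 187 and 265 CPM in the WT mice and at 33.1, 0, 37.1 and 52.3 in the CaMKK2 KO mice. The groups lay far apart, and one CaMKK2 KO mouse had no Nt5e UMI among its Tregs. These values rest on 209 Nt5e UMIs in WT and 53 in CaMKK2 KO. The log2 fold change was -2.98 ± 0.42 (edgeR adjusted p = 0.00609, or 0.000294 with a limit of 10 UMIs, which either genotype passes alone), called in all 8 fits that left out 1 mouse, though not by limma with equal weight of cells (adjusted p = 0.182). At least 1 Nt5e UMI was found in 60.0% to 70.0% of Tregs in the WT mice and in 0 to 21.6% in the CaMKK2 KO mice. Nt5e in other T cells was at 71.9 ± 11.2 in WT and 35.8 ± 12.6 in CaMKK2 KO, and the difference in Tregs was the larger by -2.03 ± 0.38 on the log2 scale (interaction of genotype and class, edgeR adjusted p = 0.0429), a call lost in 5 of the 8 fits without 1 mouse (adjusted p up to 0.211 without WT mouse 2), and under TMM scaling.

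Arhgap31 (chr16:38598340-38713274), a GTPase-activating protein for the cytoskeletal switches Cdc42 and Rac1, was also lower in CaMKK2 KO Tregs. Its level was 223, 180, 209 and 221 CPM in WT and 56.8, 35.0, 37.1 and 11.6 in CaMKK2 KO. The lowest WT mouse stood above the highest CaMKK2 KO mouse by a wide margin, with a log2 fold change of -2.41 ± 0.28 (edgeR adjusted p = 0.00106, called in all 8 fits without 1 mouse). Its UMIs numbered 182 in WT and 66 in CaMKK2 KO, and with the limit of 10 UMIs the adjusted p was 9.39e-05. Other T cells held 35.0 and 21.4 with overlap, and the interaction was not called (edgeR adjusted p = 0.127).

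Tnfrsf9 (chr4:150914562-150946102), the 4-1BB gene, a costimulatory receptor of activated Tregs, was at 544, 1080, 601 and 799 CPM in WT and at 341, 326, 394 and 297 in CaMKK2 KO, without overlap. The log2 fold change was -1.18 ± 0.20 (edgeR adjusted p = 0.0187), lost in 4 of 8 fits without 1 mouse (adjusted p up to 0.0935 without CaMKK2 KO mouse 2). Other T cells held 245 ± 55.4 in WT and 105 ± 17.3 in CaMKK2 KO, with an interaction of 0.11 on the log2 scale (edgeR adjusted p = 0.918). The call was also lost when Tregs were held to 4000 to 30000 UMIs.

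Got1 (chr19:43499752-43524605), the cytosolic aspartate aminotransferase, was at 346, 282, 235 and 191 CPM in WT Tregs and at 94.6, 109, 103 and 145 in CaMKK2 KO. Neb (chr2:52136647-52378474), the gene of the muscle protein nebulin, was at 322, 332, 292 and 257 in WT and at 123, 158, 182 and 111 in CaMKK2 KO. Neither overlapped, and the log2 fold changes were -1.18 ± 0.22 (edgeR adjusted p = 0.0349) and -1.01 ± 0.20 (edgeR adjusted p = 0.0421). Both calls were lost in 6 of 8 fits without 1 mouse, with adjusted p up to 0.158 and 0.190 without WT mouse 2. In other T cells Neb lay the other way round, at 22.8 ± 7.38 in WT and 46.6 ± 8.14 in CaMKK2 KO, and its interaction was -1.88 ± 0.26 (edgeR adjusted p = 0.00922; 0.0687 without WT mouse 2). Got1 in other T cells was 46.2 and 54.3, with an interaction of -1.41 (edgeR adjusted p = 0.0256; 0.211 without WT mouse 2).

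Apoe (chr7:19696109-19699188), a lipid carrier that macrophages make in bulk, was at 445, 438, 505 and 382 CPM in WT Tregs and at 9.46, 14.0, 50.7 and 134 in CaMKK2 KO (log2 fold change -3.31 ± 0.47, edgeR adjusted p = 0.00609, called in all 8 fits without 1 mouse). The same gene was at 376 in WT and 88.7 in CaMKK2 KO in other T cells, and at 19295 in WT and 1293 in CaMKK2 KO in cells that are not T cells. The lower level in CaMKK2 KO was thus shared by Tregs and the surrounding cells, and the part of free Apoe RNA in the Treg value was not tested.

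Other genes lower in CaMKK2 KO Tregs were Eif3j1, Mgst2, Bmp2k, Tspan13, P2ry10 and Crlf2. Crlf2, the receptor of the cytokine TSLP, averaged 268 ± 15.1 CPM in WT and 152 ± 12.7 in CaMKK2 KO (log2 fold change -0.83, edgeR adjusted p = 0.0453), and P2ry10, a lysophospholipid receptor, 330 ± 36.5 and 175 ± 16.4 (-0.90, edgeR adjusted p = 0.0308). Eif3j1 and Crlf2 were also lower in other T cells and in cells that are not T cells. Crlf2 and P2ry10 were called in only 2 of 8 fits without 1 mouse (adjusted p up to 0.172 and 0.150 without WT mouse 3), Bmp2k in 1 and Tspan13 in 3 (adjusted p up to 0.139 for either, without WT mouse 4).

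The 5 genes called higher in CaMKK2 KO Tregs were Gm8797, Igsf23, 1600014C10Rik, Wls and Cxcr6. All 5 passed the main limit on UMIs only through CaMKK2 KO. Gm8797 had 6 UMIs in WT and 394 in CaMKK2 KO Tregs, so WT alone missed even the limit of 10 UMIs. Its levels are therefore a description, and no test is given for it. For 1600014C10Rik the UMIs numbered 57 and 372, and for Wls 98 and 460. Gm8797 was at 5.09 ± 3.88 CPM in WT and 251 ± 39.4 in CaMKK2 KO, and 1600014C10Rik at 72.3 ± 20.3 and 256 ± 75.3, and both moved the same way in other T cells and in cells that are not T cells. Gm8797 and Eif3j1 have near-identical copies among which the authors' counting could split reads, so their values are uncertain. Wls, which carries Wnt proteins to the cell surface, was at 113 ± 16.9 in WT Tregs and 271 ± 55.3 in CaMKK2 KO (log2 fold change 1.29, edgeR adjusted p = 0.0155), a call lost in 4 of 8 fits without 1 mouse (adjusted p up to 0.102 without WT mouse 3) and with at least 2 Foxp3 UMIs (0.0829). It was at 39.6 and 289 in other T cells.

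Igsf23 (chr7:19937305-19950756), an immunoglobulin superfamily gene, was at 0, 24.7, 13.1 and 8.95 CPM in WT Tregs and at 92.2, 87.5, 94.0 and 58.1 in CaMKK2 KO (log2 fold change 2.53 ± 0.38, edgeR adjusted p = 0.00609). The WT Tregs held only 13 of its UMIs and the CaMKK2 KO Tregs 150, so it passed the limit of 100 through CaMKK2 KO. It was called with a limit of 10 (edgeR adjusted p = 0.00252) and not by limma with equal weight of cells (adjusted p = 0.176), and DESeq2 gave no adjusted p. In the other T cells Igsf23 was at 1.84 and 13.7. Cxcr6 (chr9:123806475-123811760), a receptor that places T cells near CXCL16-bearing myeloid cells, was at 0, 45.9, 52.2 and 86.5 in WT Tregs and at 196, 137, 215 and 140 in CaMKK2 KO. The genotypes did not overlap (log2 fold change 1.59 ± 0.32, edgeR adjusted p = 0.0453), but the call was lost in 5 of 8 fits without 1 mouse (adjusted p up to 0.201 without WT mouse 2). It had 54 UMIs in WT and 320 in CaMKK2 KO Tregs, and the adjusted p was 0.0184 with a limit of 10 UMIs. Cxcr6 in other T cells was 349 ± 202 and 469 ± 84.8 with overlap, and the interaction was 1.45 (edgeR adjusted p = 0.0429; 0.227 without WT mouse 2).

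**Figure D4:**
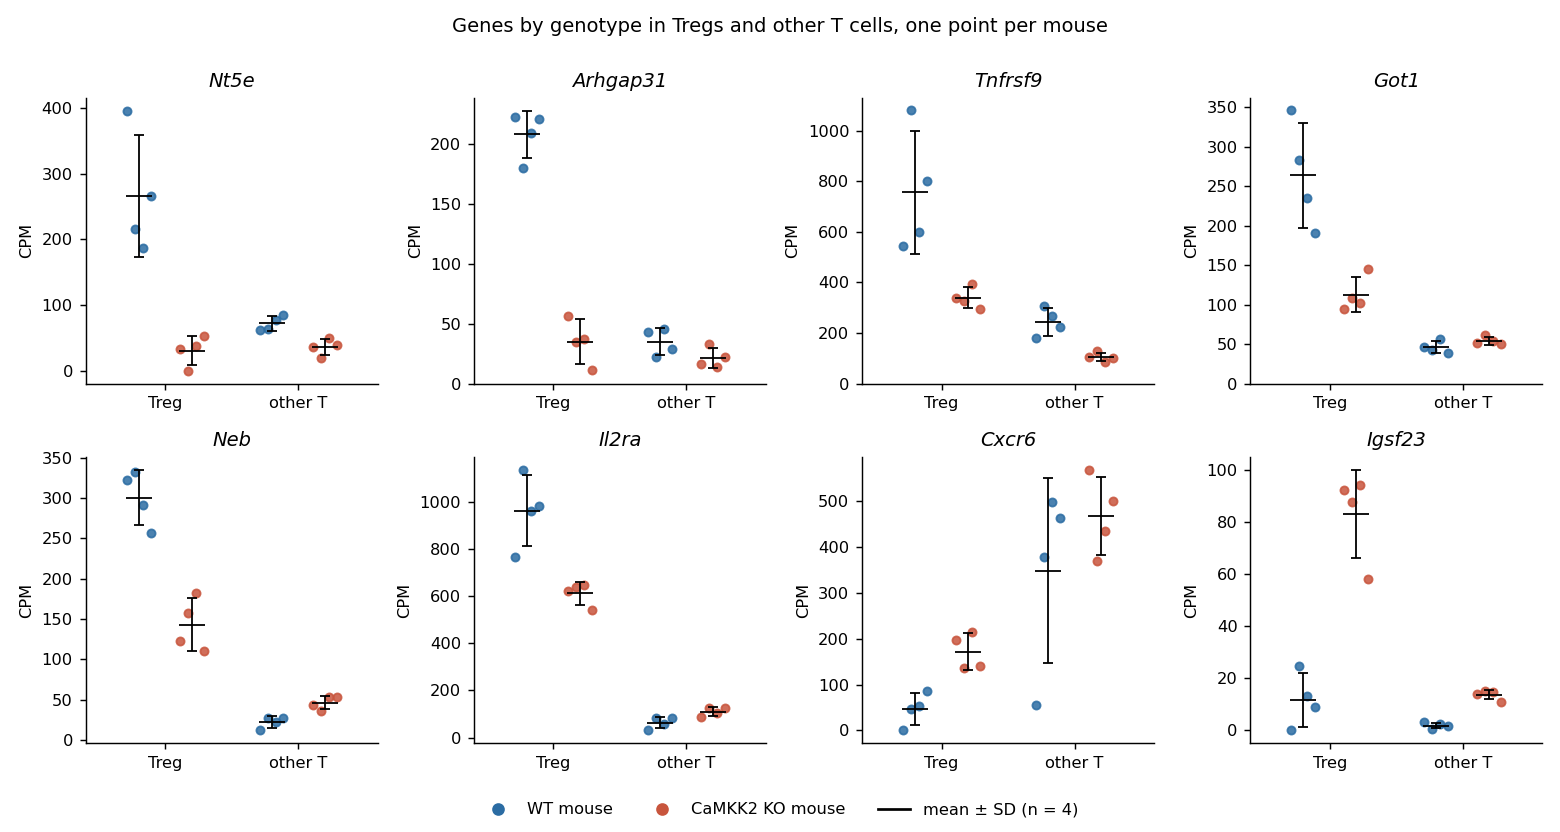
Levels of Nt5e, Arhgap31, Tnfrsf9, Got1, Neb, Il2ra, Cxcr6 and Igsf23 in CPM in Tregs and in other T cells of WT and CaMKK2 KO mice, 1 point per mouse. In Tregs the genotypes do not overlap for any of the 8 genes, and in other T cells Neb and Il2ra lie higher in CaMKK2 KO while lying lower in Tregs.

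The Treg markers outside the gate were not called by genotype, except Il2ra under some alternatives and Klrg1 without class II-rich cells. Il2ra averaged 961 ± 150 in WT and 611 ± 47.9 in CaMKK2 KO (SD, n = 4), without overlap, for a log2 fold change of -0.67 ± 0.15 (edgeR adjusted p = 0.083). It was called by DESeq2 (adjusted p = 0.0137), by edgeR without doublets called by Scrublet (0.0367), without class II-rich cells (0.0175) and without WT mouse 1 (0.0407), over a range of 0.0137 to 0.559 across alternatives. In other T cells it was higher in CaMKK2 KO, 110 ± 19.5 against 63.9 ± 25.1, and the interaction of -1.37 ± 0.22 was called (edgeR adjusted p = 0.0206; 0.109 without WT mouse 2). Ikzf2 and Ctla4 also lay lower in every CaMKK2 KO mouse than in any WT mouse, by -0.35 and -0.53 on the log2 scale, and neither was called (edgeR adjusted p = 0.22 and 0.167). No test is given for Foxp3, since it chose the cells, and its levels are those given above. Of all 3986 genes, 5.34% lay lower and 3.09% lay higher in CaMKK2 KO without overlap. Tnfrsf4, Izumo1r and Klrg1 overlapped between genotypes. For Klrg1 the log2 fold change was 0.91 ± 0.41 (edgeR adjusted p = 0.374). Without class II-rich cells it was 1.38 (edgeR adjusted p = 0.0411), and the adjusted p ranged from 0.0411 to 0.578 over alternatives. Klrg1 passed the limit on UMIs only through CaMKK2 KO.

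By group, the transcription factors had no call among 25 tested, with 4 that lay lower in CaMKK2 KO without overlap and a median log2 fold change of -0.31. One of them, Nr4a1, an immediate early gene of T cell receptor signalling, was at 421, 318, 444 and 343 CPM in WT and at 116, 133, 137 and 297 in CaMKK2 KO (log2 fold change -1.21 ± 0.27, edgeR adjusted p = 0.083). The interleukin 2 genes had no call among 12, with 3 lower without overlap and a median of -0.40. Costimulatory receptors had 1 call of 10, Tnfrsf9 (median -0.26), and suppressive molecules 1 of 20, Nt5e (median -0.33). Tissue Treg receptors had 1 call of 21, Cxcr6 (median -0.09). Ccr2 was at 148, 325, 431 and 289 in WT and at 433, 641, 512 and 634 in CaMKK2 KO. This chemokine receptor did not overlap between genotypes and was not called (edgeR adjusted p = 0.169).

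Cell cycle genes had no call among 20 tested but a median log2 fold change of 0.89, with 19 of 20 above 0 and 3 higher in CaMKK2 KO without overlap. The summed list overlapped, at 1014, 2524, 2546 and 3418 CPM in the WT mice and 7123, 4240, 4083 and 2640 in CaMKK2 KO. WT mouse 1, the lowest, and CaMKK2 KO mouse 1, the highest, stood apart. Stmn1, a tubulin regulator of dividing cells, averaged 123 ± 97.1 CPM in WT and 376 ± 127 in CaMKK2 KO (log2 fold change 1.35 ± 0.36, edgeR adjusted p = 0.149). Mki67 overlapped, at 228 ± 87.1 and 358 ± 185 (edgeR adjusted p = 0.491), and the share of Tregs with an Mki67 UMI was 21.0% and 21.6% after thinning. Interferon response genes had no call among 28 (median 0.18), MHC class I genes none among 16 (median 0.16), and the CaMKK2 and AMPK pathway none among 8 (median 0.05). Effector genes had none among 5 (median 0.05) and resting T-cell genes none among 7 (median -0.41). Dissociation and heat shock genes had none among 9 (median -0.33).

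**Figure D5:**
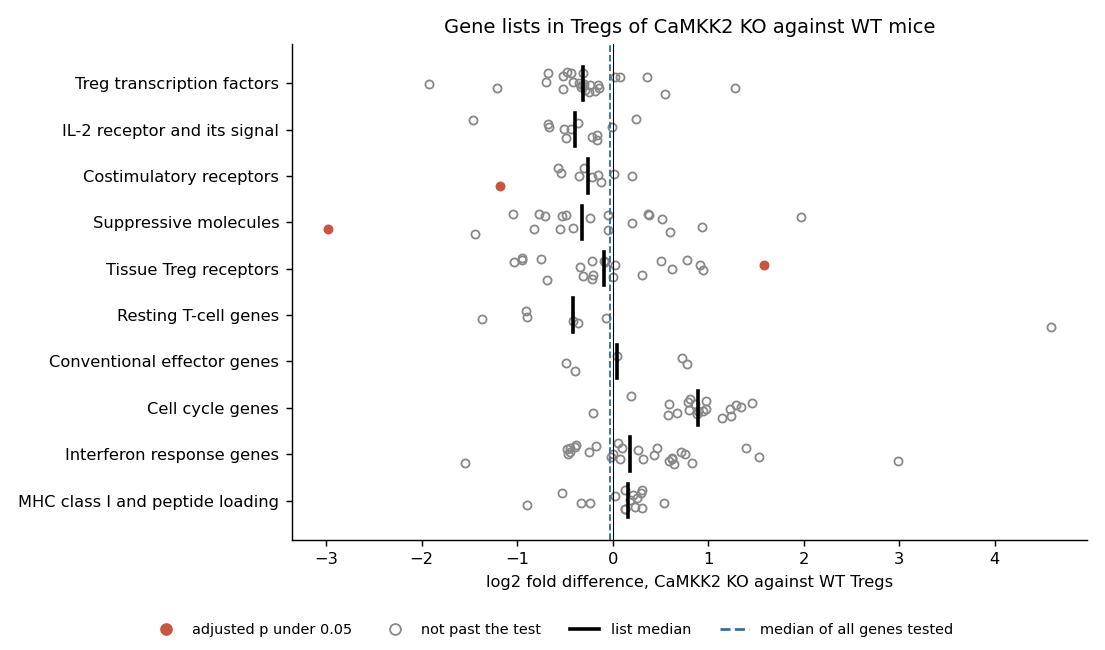
Log2 fold changes of CaMKK2 KO against WT Tregs for the tested genes of each list, 1 point per gene, filled where the edgeR adjusted p was under 0.05, with the median of each list and a line at the median of all genes (-0.03). Cell cycle genes sit to the high side (median 0.89), and Tnfrsf9, Nt5e and Cxcr6 are among the few filled points.

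Cells rich in class II transcripts were more numerous among CaMKK2 KO Tregs, so the comparison was repeated on cells with fewer than 20 UMIs over H2-Aa, H2-Ab1, H2-Eb1 and Cd74, a limit chosen after the values were seen. This removed 4 WT and 13 CaMKK2 KO Tregs and left 48 called of 3463 genes tested, 23 higher and 25 lower, among them 15 of the 18. Apoe, a macrophage marker, was still called lower (-3.82). H2-Ab1 and C1qc were also among the 48, but no test is given for them, since their UMIs chose the cells. Il2ra was then called lower (log2 fold change -0.68, edgeR adjusted p = 0.0175) and Klrg1 higher (1.38, edgeR adjusted p = 0.0411). Before this removal Klrg1 had 0, 16, 24 and 53 UMIs in Tregs of the WT mice and 90, 77, 134 and 14 in CaMKK2 KO. Klrg1 thus passed the limit on UMIs only through CaMKK2 KO, and it was not called with all Tregs (edgeR adjusted p = 0.374). Of 20 cell cycle genes 3 were called higher, Stmn1 (1.67), Hmgb2 (1.26) and Top2a (1.23), as was Prf1, the perforin gene (2.12), while Nfkbid, a nuclear regulator of NF-kappaB in Treg development, was called lower (-2.36). Nr4a1 was lower by -1.32, and of 9 dissociation and heat shock genes Jun (-0.79) and Dusp1 (-0.76) were called lower too. The part of handling in these immediate early genes was not tested.

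The genotype effect differed between Tregs and other T cells for 9 of 3975 genes (0.226%), 1 higher (0.0252%) and 8 lower (0.201%) in the direction of Tregs. DESeq2 called 74, 51 higher and 23 lower, of which 6 were shared with the 9. Besides Il2ra, Neb, Nt5e, Got1 and Cxcr6 these were Cd4, Ebi3, Pmepa1 and Ifi44. Cd4 was at 371, 184, 178 and 146 CPM in WT Tregs and at 142, 186, 176 and 134 in CaMKK2 KO, with overlap. In other T cells it was at 3.09, 30.4, 21.6 and 16.6 in WT and at 72.8, 180, 114 and 178 in CaMKK2 KO, without overlap (interaction -2.76 ± 0.40, edgeR adjusted p = 0.00922; 0.0603 without WT mouse 2). The makeup of the other T cells moved alongside, since 45 of 582 in WT and 258 of 832 in CaMKK2 KO were Cd4+ Foxp3- cells. Ebi3, a subunit of interleukin 35, was at 49.1 ± 16.9 and 38.8 ± 9.68 in Tregs and at 2.54 ± 1.93 and 14.7 ± 4.51 in other T cells of WT and CaMKK2 KO (interaction -2.65, edgeR adjusted p = 0.0433). With so low a level in WT, it passed the limit on UMIs in other T cells mainly through CaMKK2 KO. The Ebi3 call was lost under TMM scaling and without WT mouse 2, where no interaction was called. Pmepa1, a TGF-beta-induced gene, was at 233 and 184 in Tregs and 84.3 and 159 in other T cells. Il2ra, Cd4 and Ebi3 thus lay higher in CaMKK2 KO in other T cells, and the part of their Cd4+ Foxp3- cells in this was not tested.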

How the data were processed

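The authors demultiplexed reads with bcl2fastq 2.20, aligned them to mm10 with STAR 2.7.5c in Cell Ranger 4.0.0 and deposited UMI counts per gene, hashtag and barcode for 2 libraries. The members and the 20 gene lists were chosen with earlier results of these data known. The deposited counts were used as they stand. Barcodes were assigned to mice with HTODemux (Seurat 5.3.0, quantile 0.99), and 22 hashtag doublets among the Tregs were left out. UMIs of each class were summed per mouse, with the total UMIs of the class as library size, and tested by edgeR 4.0.16 (quasi-likelihood, R 4.3.3) for genes with at least 100 UMIs, with Benjamini-Hochberg adjustment and calls at an adjusted p under 0.05. Each SE is the fold change over the square root of F. Class comparisons and the interaction held the mouse as a block, since both classes came from the same animal. Shares were compared by exact permutation over mice (scipy 1.17.1). CPM values are levels for display, and their depth is that of the summed UMIs given per mouse.

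Genes named were the gate genes, the markers, Camkk2, the highest and lowest 10 of each comparison by fold change among calls with at least 50 CPM and separate mice, and members of the lists; others were picked after their values were seen. Of 31253 gene identifiers 31107 matched GENCODE (GRCm38), the source of coordinates. Of the 20 lists, 3 symbols were not matched. Alternatives were TMM scaling, limits of 10 and 200 UMIs, at least 2 Foxp3 UMIs, fewer than 5 C1q UMIs, removal of doublets called by Scrublet (scanpy 1.11.5), cells of 4000 to 30000 UMIs, DESeq2 1.42.0, limma 3.58.1 on log2 values with a pseudocount of 10 CPM, and leaving out each mouse. The tests were tried on simulated data. A few genes are not reported here.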

Additional observations from a re-analysis of the deposited data

Results flagged for a closer look

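Within a genotype, 5 of 60 groups of 4 mice held a mouse far from the other 3, where chance gives about 1 in 20. Foxp3 was at 1311 CPM in Tregs of WT mouse 1 and Cd4 at 371 in the same mouse, which had 10 Tregs. Mgst2 was at 68.6 in WT mouse 4, where the other WT mice lay between 74.0 and 74.2. H2-Aa was at 1336 and Cd74 at 3525 in Tregs of WT mouse 4.

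The genotype effect differed between Tregs and other T cells by a test of the interaction for 9 genes. The difference, on the log2 scale, was -1.37 for Il2ra, -1.88 for Neb, -1.17 for Pmepa1, -3.39 for Ifi44, -2.76 for Cd4, -2.03 for Nt5e, 1.45 for Cxcr6, -2.65 for Ebi3 and -1.41 for Got1 (edgeR adjusted p between 0.00922 and 0.0433). Ifi44 averaged 18.2 ± 16.6 CPM in WT and 88.6 ± 108 in CaMKK2 KO Tregs, or 34.8 ± 12.6 (n = 3) without CaMKK2 KO mouse 4, where 43 UMIs in 3 cells gave 250.03 CPM, and 1.5 ± 1.04 and 63.4 ± 43.5 in other T cells (SD, n = 4). Its UMIs in Tregs were 0, 8, 2 and 12 in the WT mice and 13, 14, 20 and 43 in CaMKK2 KO. Ifi44 thus passed the limit of 100 UMIs through CaMKK2 KO. Its call was lost under TMM scaling and without WT mouse 2, where no interaction was called.

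Foxp3 UMIs appeared in cells outside the Treg gate, in 5.60% of Cd8+ T cells in WT and 7.93% in CaMKK2 KO, above the shares in macrophages, NK cells and B cells.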

How the results depend on the processing

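The genotype comparison of Tregs gave 18 genes. It gave 11 genes under TMM scaling, 33 with at least 10 UMIs, 33 by DESeq2, 6 by limma with equal weight of cells and 48 without class II-rich cells, and 7 to 29 when 1 mouse was left out, the lowest without CaMKK2 KO mouse 2 and the highest without CaMKK2 KO mouse 4. The 7 genes not called under TMM scaling were Cxcr6, Bmp2k, Tspan13, Got1, Neb, P2ry10 and Crlf2. The interaction gave 9 genes, 5 under TMM scaling, with fewer than 5 C1q UMIs or with 4000 to 30000 UMIs per cell, 23 with at least 10 UMIs, 24 without doublets called by Scrublet, 27 without class II-rich cells and 74 by DESeq2. Leaving out 1 mouse gave 0 to 12, the 0 by edgeR without WT mouse 2, where 357 genes had an unadjusted p under 0.05. The cause of these shifts was not tested. Tregs against Cd4+ Foxp3- T cells gave 343 genes, 538 with at least 10 UMIs and 224 to 413 without 1 mouse, the lowest without CaMKK2 KO mouse 2, whereas Tregs against other T cells gave between 1480 and 2169 over all settings around 1893. Without the replicate block the class comparisons gave 1682 and 270 genes. Among named genes with at least 100 UMIs in each class, the calls of Cd4 against other T cells and of Cd74 against Cd4+ Foxp3- T cells were lost (edgeR adjusted p = 0.106 and 0.0718). The pairing is by animal, and hashtag numbers pair no mice across genotypes. The Treg share of all cells changed sign in 1 setting, without CaMKK2 KO mouse 3, where the difference was -0.096 percentage points, in a range of -0.096 to 1.20 without 1 mouse. No called value changed direction. Depth limits the genotype comparison to genes with at least 100 UMIs over the Tregs of 8 mice and the class comparisons to genes with 100 over both classes, and WT mouse 1 rests on 10 Tregs.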
